A study of Mus musculus with 35 samples.

Results

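Open chromatin of mouse haematopoietic progenitor cells (HPCs) was compared between postnatal day 7 (P7) and postnatal day 14 (P14). The assay was ATAC-seq, which uses the Tn5 transposase to tag DNA that is not covered by nucleosomes. The comparison used the first set of peak lists of the series, in which the 3 libraries of P7 HPCs and the 2 libraries of P14 HPCs were each represented by 1 pooled list. Touching or overlapping peaks on chromosomes 1 to 19 and X were merged into regions, which gave 78874 regions at P7 and 91043 at P14. These are 169917 of the 891747 regions in the 12 lists of the series. Regions of both lists that overlapped by 1 bp or more were counted as shared, and the rest as called at 1 age alone.

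All animals were of the B6 strain background, per the series description. The labels of the P7 and P14 HPCs give cell type and age, and they name no treatment. The sources used here do not give how these cells were sorted, how many animals went into a library or the read depth. Set 1 also held HPCs of the fetus (E16.5, 3 libraries), P21 (2) and adults aged 8 weeks (3), and haematopoietic stem cells (HSCs) of the fetus (3), P14 (3) and adults (5). Set 2 held P7 HPCs and HSCs of wild-type mice (3 libraries each) and of mice without Ifnar, the type I interferon receptor, per their genotype label (3 and 2). The titles of the set 2 HPC libraries label them as CD48-positive LSK cells (lineage-negative, Sca-1-positive and Kit-positive). With 1 list per group there was no spread between replicates, no test was possible, and every number holds for these lists.

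HPCs are the dividing descendants of HSCs that feed the myeloid, erythroid, megakaryocytic and lymphoid lineages. Around birth blood formation moves from the liver to the bone marrow, and in the following weeks progenitors pass from a fetal to an adult programme. Accessible regions at gene starts are mostly common to many cell types, whereas accessible regions away from gene starts, which include enhancers, differ more between cell types and ages.

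The bases before the starts of 4 genes are shown first, because they show what a region called at 1 age alone looks like at a gene start. They were picked after the values were seen. Dtx1 encodes a ubiquitin ligase of the Notch pathway, and its start was called at P14, P21 and in adults but in no fetal or P7 HPC list. Fes encodes a tyrosine kinase of myeloid cells, and its start carried one of the strongest regions called at P14 alone. H2-DMb1 encodes a chain of the molecule that loads peptides onto MHC class II, and among genes with a RefSeq promoter window it was the only member of the gene lists below whose own window met a strong region called at P14 alone. Nmur2, a receptor for neuromedin peptides, had the only start with a strong region called at P7 alone. Each run holds the 250 bases before the start, 5′ to 3′ on the gene's strand, from RefSeq on GRCm38.p6, and capitals mark the bases inside the deposited region.
Dtx1 (minus strand, chr5:120711670-120711919): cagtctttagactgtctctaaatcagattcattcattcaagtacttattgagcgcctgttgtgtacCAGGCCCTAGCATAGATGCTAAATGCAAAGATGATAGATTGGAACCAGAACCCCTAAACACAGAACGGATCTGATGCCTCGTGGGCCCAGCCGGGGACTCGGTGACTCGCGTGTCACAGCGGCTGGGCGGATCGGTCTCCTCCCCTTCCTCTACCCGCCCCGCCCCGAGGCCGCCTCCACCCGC
Fes (minus strand, chr7:80387947-80388196): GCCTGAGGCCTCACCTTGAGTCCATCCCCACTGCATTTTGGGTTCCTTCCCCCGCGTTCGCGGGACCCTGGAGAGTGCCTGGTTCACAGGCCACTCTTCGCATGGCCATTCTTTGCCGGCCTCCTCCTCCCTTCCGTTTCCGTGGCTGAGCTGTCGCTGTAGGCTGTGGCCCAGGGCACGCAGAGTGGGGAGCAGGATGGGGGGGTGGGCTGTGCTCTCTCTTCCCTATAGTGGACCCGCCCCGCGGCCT
H2-DMb1 (plus strand, chr17:34152941-34153190): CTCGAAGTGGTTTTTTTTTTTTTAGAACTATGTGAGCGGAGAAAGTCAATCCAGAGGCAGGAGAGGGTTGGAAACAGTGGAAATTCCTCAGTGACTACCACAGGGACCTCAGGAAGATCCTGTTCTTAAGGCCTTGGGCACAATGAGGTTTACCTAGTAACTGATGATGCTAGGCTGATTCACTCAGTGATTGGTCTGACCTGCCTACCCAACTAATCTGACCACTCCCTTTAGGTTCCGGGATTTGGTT
Nmur2 (minus strand, chr11:56040988-56041237): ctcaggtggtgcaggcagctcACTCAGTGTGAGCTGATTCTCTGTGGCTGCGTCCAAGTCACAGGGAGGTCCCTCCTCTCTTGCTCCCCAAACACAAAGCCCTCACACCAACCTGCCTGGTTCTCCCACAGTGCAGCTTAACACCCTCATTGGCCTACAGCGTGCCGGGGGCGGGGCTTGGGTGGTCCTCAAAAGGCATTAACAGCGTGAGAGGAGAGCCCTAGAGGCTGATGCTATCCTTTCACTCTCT

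Guanine and cytosine made up 56.4% of the Dtx1 run, 65.2% of the Fes run, 46.4% of the H2-DMb1 run and 58% of the Nmur2 run. The deposited regions covered 184 of the 250 bases at Dtx1 and 229 at Nmur2, and all of them at Fes and H2-DMb1. Of 9 motifs searched on both strands, 1 match was found in these runs, an AP-1 motif (TGANTCA) at H2-DMb1. AP-1 is the dimer of Fos and Jun family factors. The same motif was in 7.04% of all 300-base promoter windows.

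The identity of the lists rests on the group name each list carries. Of the 3 libraries titled P7 HPC, 2 name the P7 HPC list in their descriptions. Neither of the 2 libraries titled P14 HPC names the P14 HPC list: 1 of them names the P7 HPC list, and the P14 HPC list is named by 2 libraries titled adult HSC. The number of libraries that name a list equals the number titled with its group for each of the 12 lists. At an equal length of 73287 regions, the P14 HPC list shared 85.9% of its regions with adult HPCs, 85.2% with P7 HPCs and 84.7% with P21 HPCs. It shared 80.5% with adult HSCs, 79.4% with fetal HSCs and 77.8% with P14 HSCs, so it overlapped the neighbouring HPC lists more than any HSC list of set 1. The P7 HPC list shared 86.0% with P14 HPCs, 83.0% with adult HPCs, 80.9% with P21 HPCs and 79.8% with fetal HPCs.

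Both lists also differed in size and strength. The strength of a region is given here by the highest -log10 p of its peaks, as the authors' peak caller wrote it. Its median was 29.2 at P7 and 60.2 at P14, and the highest value was 981 at P7 and 2648 at P14. The regions covered 44.4 Mb at P7 and 53.6 Mb at P14. Values of -log10 p were therefore read as ranks within a list, and values of several lists set side by side show where a region was called, not by how much it differed. Absence from a list means that no peak was called, and it does not measure closed chromatin. Whether read depth or the chromatin itself set the length and strength of the lists cannot be told apart. The samples hold many cells, so a different mix of cells and a different accessibility per cell cannot be told apart either.

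All 9 matched genes of the HPC surface marker list, among them Kit, Cd48 and Flt3, had a strong region within 10 kb at both ages. Strong regions are those in the upper 50% of their own list by -log10 p. Markers of other tissues were also near strong regions: 9 of 12 hepatocyte genes at either age, 10 of 12 neuronal genes at P7 and 12 of 12 at P14. Regions near a gene are no measure of its expression, so the labelled cell type could not be checked by markers in these lists.

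Most of the open chromatin was common to both ages, and most of the difference lay among weak regions. At P7, 9333 of 78874 regions (11.8%) were missing from the P14 list. At P14, 22310 of 91043 regions (24.5%) were missing from the P7 list. Among strong regions, 187 of 39725 were called at P7 alone, which is 0.471% (exact Clopper-Pearson 95% interval 0.406 to 0.543). At P14, 1008 of 45638 strong regions were called at that age alone, which is 2.21% (2.08 to 2.35). These counts depended on the P7 list and on the match: they were 396 and 4325 with the set 2 P7 list, described below, and 1439 and 2633 where summits within 100 bp counted as shared. The intervals hold for counting error only, because they treat the regions of 1 pooled list as independent draws. They hold no spread between libraries or animals. In the strongest 25% of each list, 0 regions were called at P7 alone and 20 at P14 alone.

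When each list was divided into 10 classes of equal size by -log10 p, the share called at 1 age alone fell from each of the 8 weakest classes to the next. It was 50.8% in the weakest class at P7, 9.81% in the fourth and 0.0507% in the eighth, and 0 of 7887 regions in the strongest class were missing at P14, which allows up to 0.038%. At P14 it was 78.6% in the weakest class, 30.3% in the fourth and 0.615% in the eighth, and 1 region in each of the ninth and the tenth class was missing at P7. The strong regions just inside the limit had a -log10 p of 29.23 at P7 and 60.197 at P14, and the list-only regions just outside it had 29.13 and 60.194.

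**Figure D1:**
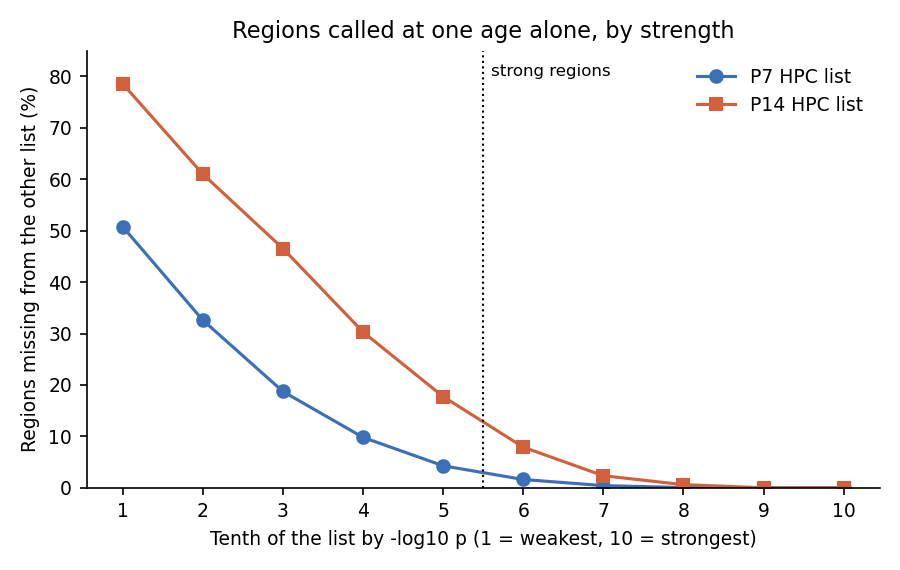
Percent of regions missing from the other list (y axis) in 10 classes of each list ordered by -log10 p (x axis), for the P7 list (circles) and the P14 list (squares); the dotted line marks the limit of strong regions. The share goes from 50.8% to 0 at P7 and from 78.6% to near 0 at P14, and the P14 list lies above the P7 list in each class.

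To set lists of the same length side by side, the 12169 weakest P14 regions were removed, and the weakest region kept had a -log10 p of 18.6. Then 12088 P7 regions (15.3%) and 13070 P14 regions (16.6%) had no counterpart, so the imbalance over all regions nearly disappeared. Among strong regions, 220 of 39725 P7 regions (0.554%, 0.483 to 0.632) and 466 of 39584 P14 regions (1.18%, 1.07 to 1.29) were called at 1 age alone. Strong P14-only regions thus still outnumbered P7-only ones at equal length, with intervals of counting error that did not overlap.

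The regions called at 1 age alone differed in position from the shared ones. No strand or exon is given for all genes, so position was read as lying within 1 kb of either end of a protein-coding gene. Of the 187 strong P7-only regions, 5 (2.67%, 0.874 to 6.13) lay there, against 27.4% of the strong shared P7 regions. These 5 were near Pf4, Nmur2, Cdc42ep3, Aldh1a7 and Olfr872. Of the 1008 strong P14-only regions, 161 (16.0%, 13.8 to 18.4) lay at a gene end, against 27.6% of the shared ones. Strong regions more than 50 kb from any gene end made up 38.5% of the P7-only and 21.4% of the P14-only ones, against 23.8% and 22.5% of the shared ones.

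Regions called at 1 age alone were also narrower and weaker than shared ones. The median width of strong regions was 426 bp for P7-only and 619 bp for shared regions of the P7 list, and 488 bp and 663 bp in the P14 list. Their median -log10 p was 32.8 against 62.9 at P7 and 72.9 against 148 at P14. The P14-only strong regions lay a median of 7208 bp from the nearest P7 region, and 89 of them (8.83%) lay within 500 bp of one. For P7-only strong regions the median distance was 8940 bp, with 7 of 187 within 500 bp. They were spread over the genome, with 3 to 14 P7-only and 19 to 91 P14-only strong regions per chromosome.

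The other 10 lists show where the same regions were called at other ages and in HSCs. Of the 1008 strong P14-only regions, 828 (82.1%, 79.6 to 84.5) were called in fetal HPCs, 845 (83.8%) in P21 HPCs and 932 (92.5%) in adult HPCs. They were also called in HSCs, with 82.9% in the fetus, 83.1% at P14 and 87.8% in adults. Only 1 of them, 90378 bp from an end of Sntg2 and inside that gene, was in none of the other 10 lists. Most strong P14-only regions were therefore called in the fetus, before P7.

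For strong P7-only regions the share was lower than for strong P14-only ones in each of the 10 lists, with overlapping intervals in the 2 fetal lists. Of the 187, 152 (81.3%, 74.9 to 86.6) were called in fetal HPCs and 151 (80.7%) in adult HPCs, and 101 (54.0%, 46.6 to 61.3) in P21 HPCs. In HSCs 78.6% were called in the fetus, 44.4% at P14 and 66.8% in adults. Among strong P7 regions shared with P14 the share was 97.7% in fetal, 96.0% in P21 and 99.1% in adult HPCs. The intervals of P7-only and shared regions did not overlap in any of the 10 lists, and shared regions were also stronger.

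Set 2 offers a second P7 HPC list, of wild-type mice. Its values run from a -log10 p of 2.12, whereas the lists of set 1 begin at about 1. The lowest peak score was 415 in both this list and the set 1 P7 HPC list. The names differ too: lists of set 1 are labelled "filt" and those of set 2 "optimal_peak". The peaks of the 2 sets may thus have been selected differently, and the settings are not given. Of the 1008 strong P14-only regions, 786 (77.98%, 75.3 to 80.5) were called in this second P7 list, against 90.8% of the strong shared P14 regions. For 777 of the 786, the summit of the overlapping region lay inside the P14 region. Hence 222 strong P14 regions were missing from both P7 lists. Of the 187 strong P7-only regions, 67 (35.8%, 29.0 to 43.2) were called again in the second P7 list, against 90.1% of the strong shared P7 regions. The knockout HPC list, also at P7, called 71.5% of the P14-only and 25.7% of the P7-only strong regions. A strong region missing from the set 1 P7 list was thus more often than not called in another list of the same age.

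**Figure D2:**
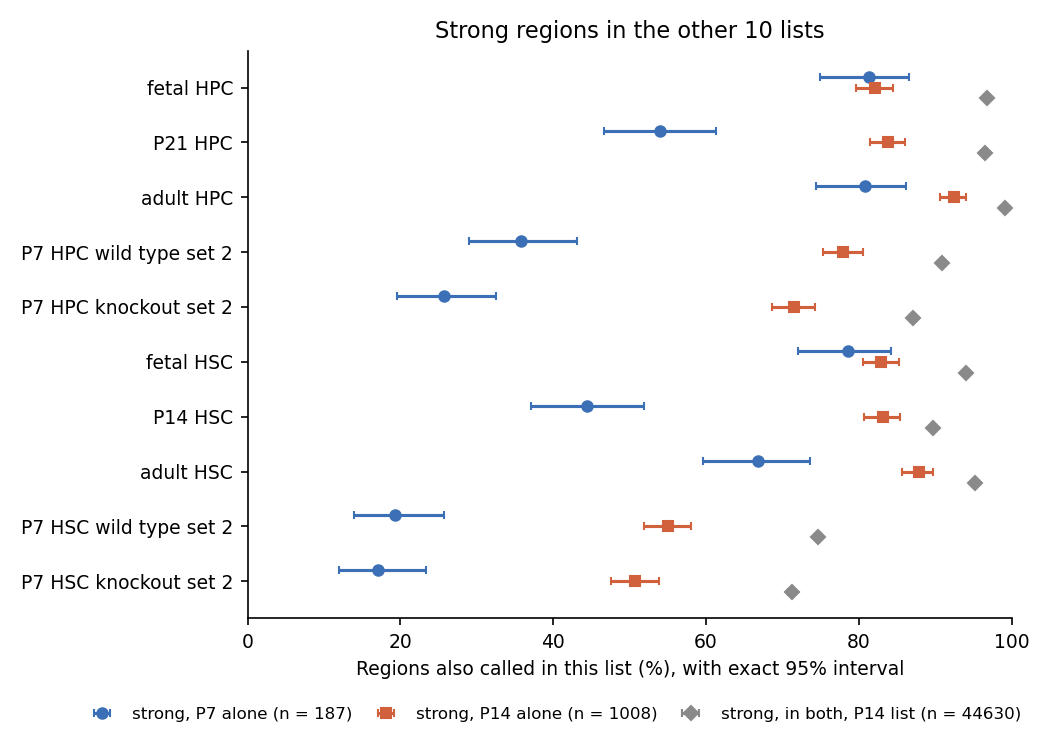
Percent of strong regions also called in each of the other 10 lists (x axis, exact 95% intervals) for regions called at P7 alone (circles), at P14 alone (squares) and at both ages (diamonds). In the second P7 HPC list of wild-type mice the values are 35.8%, 77.98% and 90.8%.

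The HPC lists of set 1 place the regions in time. Of the 1008 strong P14-only regions, 648 (64.3%) were called in the fetal, P21 and adult lists, so that P7 was the only HPC age of set 1 without them, and 513 of these 648 were in the second P7 list. A further 140 were called at P21 and in adults but not in the fetus, 122 in the fetus and adults, and 8 in no other HPC list of set 1. Of the 187 strong P7-only regions, 75 (40.1%) were called in the fetal, P21 and adult lists and so missing at P14 alone, 51 were called in the fetus and adults but not at P21, and 17 were called in the fetus and at P7 only. Another 5 were in no other HPC list of set 1.

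Over all regions the same patterns had other sizes. Of 22310 P14-only regions, 3724 (16.7%) were in the fetal, P21 and adult lists, and 5570 (24.97%) were in no other HPC list of set 1, with a median -log10 p of 14.2. Of 9333 P7-only regions, 840 were in all 3 of those lists and 3337 (35.8%) in none, with a median of 8.70. Regions called in a single HPC list of set 1 were nearly all weak, since 8 of the 5570 and 5 of the 3337 were strong. Other lists called part of them: the second P7 HPC list 1133 and 349, and fetal HSCs 1684 and 838.

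**Figure D3:**
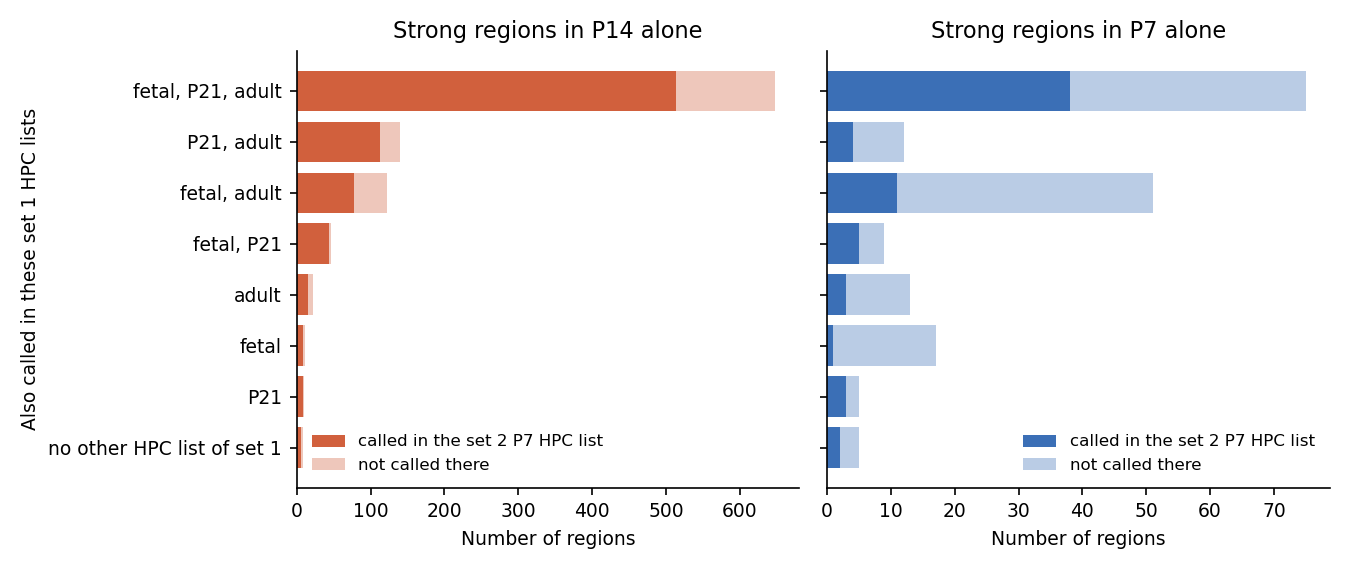
Number of strong regions called at P14 alone (left) or at P7 alone (right) by the other HPC lists of set 1 that call them (y axis); full colour marks regions also called in the second P7 HPC list. The largest classes are regions called at all other ages, with 648 at P14 and 75 at P7.

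A kept gain was defined as a P14-only region missing from both P7 lists and the fetal list and called at P21 and in adults, and a kept loss as a P7-only region called in both P7 lists and the fetal list and missing at P21 and in adults. There were 1274 kept gains and 185 kept losses, of which 27 and 1 were strong. The kept gains had a median -log10 p of 23.7, and 7.93% lay at a gene end. Adult HSCs called 696 of them (54.6%), fetal HSCs 412 (32.3%) and P14 HSCs 379 (29.7%). For all P14-only regions missing from both P7 lists the shares were 46.9%, 45.6% and 29.9%. Of the 185 kept losses, 122 (65.9%) were called in fetal HSCs and 114 (61.6%) in P14 HSCs. For all P7-only regions called in both P7 lists the shares were 48.6% and 54.3%. A call in HSCs at the age when HPCs lacked the region was thus common beyond the kept losses. Without the second P7 list in the definition there were 2364 and 1466, and with the 5 HPC lists of set 1 at equal length 759 and 257.

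Among the regions with a gene end within 50 kb, the strongest one called at P14 alone lay at chr8:111939807-111940187, 516 bp from an end of Gabarapl2, a member of the ATG8 family of autophagy proteins. Its -log10 p was 190.1 at P14. In other HPC lists it was 94.3 in the fetus, 124 at P21 and 229 in adults, and 72.4 in wild-type and 71.6 in knockout HPCs of set 2. It was also called in all 5 HSC lists, at 20.2 to 478. The set 1 P7 HPC list alone lacked it.

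The next region, at chr11:102946570-102946980, covered an end of C1ql1, which encodes a secreted protein of the C1q family. It had a -log10 p of 174 at P14, 83.1 in fetal, 115 in P21 and 73.0 in adult HPCs, and 128 in the second P7 list. No P7 region lay within 10 kb of C1ql1, whereas P14 had 3 and the second P7 list 3. At Fes (chr7:80387787-80388202), whose bases are printed above, the values were 156 at P14, 39.6 in the fetus, 101 at P21, 59.0 in adults and 107 in the second P7 list. Klrb1c encodes the NK1.1 receptor of natural killer cells, and a region 23826 bp from one of its ends had 166 at P14, 106 in the fetus, 97.2 at P21, 93.5 in adults and 129 in the second P7 list. All of these were called in each of the other 10 lists.

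Srp54c, a gene of the signal recognition particle, had the only one of the 12 strongest named regions that the second P7 list lacked. The region at chr12:55230330-55230841, 212 bp from a gene end, had a -log10 p of 162 at P14, 82.4 in the fetus, 53.8 at P21 and 74.3 in adults, and no list of set 2 called it. The other 11 were called in the second P7 list at 68.3 (Cfap97d2) to 284 (Spesp1, a sperm protein gene). Iqcd was the only one of the 12 missing in fetal HPCs. The remaining regions lay near Rin3, Nmnat2, Atp1b2 and Slc24a1, with a -log10 p of 150.2 to 155 at P14.

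Outside the naming rule, because no gene end lay within 50 kb, was the strongest P14-only region of all. It lay at chr2:43274038-43274525, 280733 bp from the nearest gene end, that of Kynu, with a -log10 p of 605 at P14. In HPCs it had 429 in the fetus, 239 at P21 and 999 in adults, and 227 and 170 in the wild-type and knockout lists of set 2. It was called in 9 of the other 10 lists, all but the knockout HSCs.

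The 12 strongest named regions stood at percentiles 75.7 to 80.9 of the P14 list and 63.7 to 74.3 of the P7 list by -log10 p, and few of those of P7 were called in the second P7 list. The first of P7, at chrX:96329823-96330157 inside Hsf3, a heat shock factor gene, had a -log10 p of 61.5 at P7, 29.7 in fetal, 34.6 in P21 and 59.5 in adult HPCs. It was called in all 3 HSC lists of set 1, at 36.1 to 101, and in no list of set 2. A region 12851 bp from an end of Abcb11, the bile salt export pump, had 53.3 at P7, 53.8 in the fetus, 15.9 at P21 and 377 in adult HPCs. Inside Hpgd, which encodes an enzyme that degrades prostaglandins, a region had 51.0 at P7, 25.9 in the fetus, 15.9 at P21 and 11.3 in adults, and no HSC list called it.

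Of the 12 strongest named P7-only regions, 3 were called in the second P7 list, near Spata7 (121), Lrpprc (72.5) and Zfp365 (37.0). All 12 were called in fetal HPCs, at 14.8 to 67.7, and 11 in adult HPCs. Cd36 encodes a fatty acid receptor, and the region inside it had 44.02 at P7, 20.6 in the fetus, 26.9 at P21 and 39.6 in adults. Gab2, an adaptor of cytokine receptor signalling, held a region with the same 44.02 at P7, and 33.6, 40.4 and 33.7 at those ages. Etv1, an ETS family factor, held one with 44.7 at P7, 32.6 in the fetus, 38.0 at P21 and 110 in adults. These regions were missing from the P14 list and present on both sides of it in time.

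Kept gains were missing at P7 and in the fetus by definition, and their highest -log10 p at P14 was moderate. The strongest near a gene lay at chr3:94659261-94659735, 389 bp from an end of Tuft1, with a -log10 p of 93.1 at P14, 59.8 at P21 and 22.9 in adults. The knockout P7 HPC list of set 2 called it at 58.3, although the wild-type list did not. At Dtx1 (chr5:120711355-120711853), whose bases are printed above, the values were 77.2 at P14, 49.3 at P21 and 18.0 in adults, and P14 and adult HSCs called it at 29.9 and 48.03. No list of set 2 called it. Tle3, a Groucho family corepressor, had a region 23897 bp away with 71.9 at P14, 34.2 at P21 and 60.2 in adults, called in HSCs of adults alone, at 66.0.

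Of the 10 strongest named kept gains, all 10 were called in adult HSCs, at 46.8 to 218, and 4 in the knockout HPC list. Insig1, a regulator of sterol synthesis, and Zfhx2, a zinc finger homeobox gene, had regions with 66.2 and 67.3 at P14. Of the 27 strong kept gains, 3 lay at a gene end, those of Tuft1, Dtx1 and Tbc1d24. The strong ones were called in adult HSCs in 24 of 27 cases and in fetal HSCs in 14. Of all strong P14-only regions, adult HSCs called 87.8% and fetal HSCs 82.9%. Calls in adult HSCs were thus near the share of all strong P14-only regions.

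Kept losses were weak throughout. The only strong one lay at chr8:109563944-109564229 inside Dhx38, a splicing helicase gene, with a -log10 p of 32.3 at P7, 24.8 in the second P7 list and 15.2 in fetal HPCs, and no HSC list called it. Sparc encodes a matrix protein, and the region inside it had 26.3 at P7, 33.3 in the second P7 list and 16.3 in the fetus. The region was called in all 3 HSC lists of set 1, at 33.6, 68.5 and 111. A region near Apol7e had 24.6 in the set 1 P7 list and 208 in the second P7 list, with 157 in P14 HSCs. The 10 strongest named kept losses had a -log10 p of 22.4 to 32.3 in the set 1 P7 list, and 8 of them were called in P14 HSCs.

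**Figure D4:**
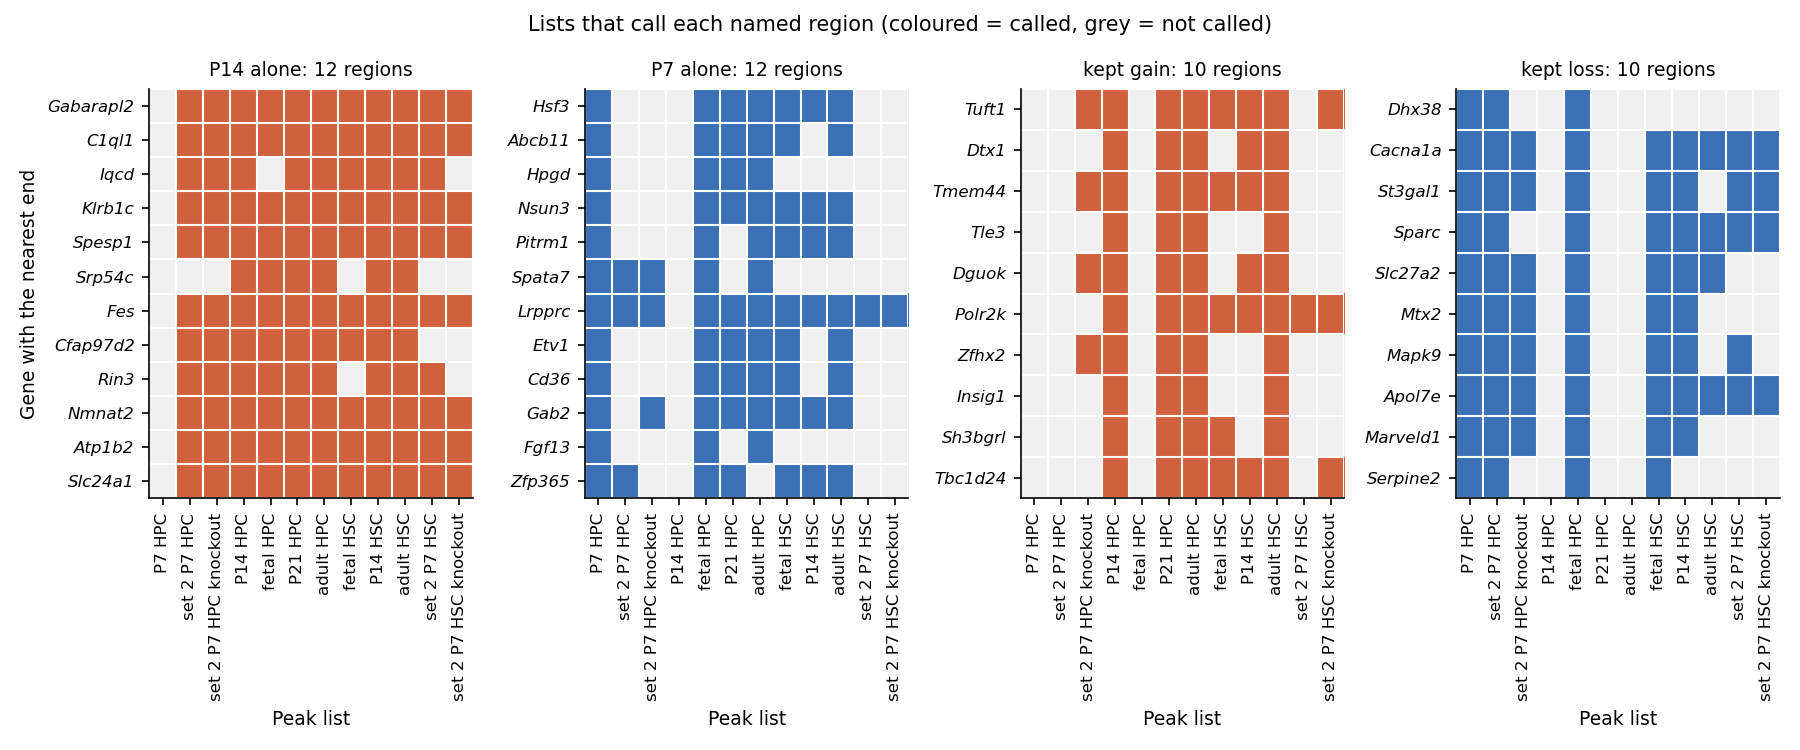
Calls of the named regions (rows, by the gene with the nearest end) in the 12 lists (columns), in 4 panels for P14-only regions (12), P7-only regions (12), kept gains (10) and kept losses (10); colour marks a call. The P14-only panel is nearly full outside the P7 HPC column, and the P7-only panel is mostly empty in the 4 columns of set 2.

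Gene lists were read through the strong regions within 10 kb of their genes. The 22 lists held 357 members, of which 353 were matched by symbol. Among all strong regions 2.21% were P14-only and 0.471% P7-only, and list values are read against these. Of the 22 lists, 15 had at least 1 strong P14-only region and 1 had a strong P7-only region. More P14-only than P7-only strong regions were found in 14 lists and fewer in 0. With the P14 list cut to the length of the P7 list, 8 lists had more. Counts in a list were small, from 0 to 4, and no list was called particular from them.

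Lymphoid lists held 6 strong P14-only regions and no P7-only one. The B cell list had 3 of 35 strong P14 regions (8.57%), near Cd79a, a chain of the B cell receptor complex, Pou2af1, a coactivator of B cells, and Pax5, the factor that commits cells to the B lineage. At Pax5 (chr4:44564594-44564894) the -log10 p was 62.5 at P14, 39.2 at P21 and 60.6 in adults, and 84.8 in the second P7 list, with no call in fetal HPCs. The Cd79a region (chr7:24902759-24903260) overlapped the promoter window of another gene, Arhgef1, and had 86.8 at P14 and 46.5 in the fetus, and it was missing from both P7 lists of wild-type HPCs. In the lymphoid priming list 2 of 55 were P14-only (3.64%), near Ikzf1, the Ikaros factor gene, and Notch1. The Notch1 region had 60.3 at P14, and the region that overlapped it in the second P7 list was a wider one with its summit elsewhere. The T and NK cell list had 1 of 36 (2.78%), near Gata3, with 81.6 at P14, 94.8 in adults and no call in the second P7 list of HPCs.

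Among erythroid genes 2 of 37 strong P14 regions (5.41%) were P14-only, near Klf1, a factor of red cell maturation, and Zfpm1, the GATA1 cofactor Fog1. Klf1 had a -log10 p of 86.8 at P14, 14.1 in the fetus, 26.8 at P21, 43.4 in adults and 74.9 in the second P7 list. The megakaryocyte list had 1 in each direction, near Vwf (von Willebrand factor, 64.8 at P14) and near Pf4 (platelet factor 4, 36.2 at P7). The Pf4 region lay at chr5:90773953-90774213, was called at P21 (35.5) and in adults (50.9), and was missing from fetal HPCs, all HSC lists and set 2. Neutrophil genes had 1 of 19 (5.26%), near Gfi1, a transcriptional repressor of the neutrophil lineage. The lists of monocyte, macrophage and dendritic genes and of eosinophil, basophil and mast cell genes had 0 of 53 and 0 of 15.

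HSC regulators had 4 of 95 strong P14 regions alone (4.21%), near Mecom, Lmo2 and, with 2, Runx1. Runx1, a master factor of blood formation, was the only list member with a difference of 2 or more. Its regions lay at chr16:92638921-92639490 and chr16:92653853-92654292, with a -log10 p of 69.5 and 61.4 at P14 and 71.2 and 31.2 at P21, and neither was called in adult HPCs. The first was called in the second P7 list at 124, the second in no P7 HPC list but in P14 HSCs at 229.95. Mecom, a self-renewal regulator, had one at chr3:30455911-30456384 with 92.8 at P14, 21.4 in the fetus, 140 in adults and 29.0 in the second P7 list, and 283 in P14 HSCs. The fetal programme list (Lin28b, Hmga2, Igf2bp3 and others) had 0 of 33, and HPC surface markers had 0 of 24.

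Immune lists had few such regions. MHC and antigen presentation had 2 of 34 (5.88%), at H2-DMb1 and near H2-D1, a class I gene. H2-DMb1 had a -log10 p of 74.3 at P14, 27.8 in the fetus, 70.7 at P21, 86.2 in adults and 87.8 in the second P7 list. Interferon-stimulated genes had 1 of 56 (1.79%), a region between Oasl1 and Oasl2 with 61.3 at P14, 11.7 in the fetus and 72.0 in the second P7 list, and no call at P21 or in adult HPCs. Innate and cytokine receptors had 1 of 71 (1.41%), a region covering an end of Il10ra (chr9:45268674-45269355). AP-1 and immediate early genes had 1 of 61 (1.64%), near Egr1, with 113 at P14 and 63.6 in the second P7 list.

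The cell cycle list had 2 of 77 (2.60%), near Ccnd1, which encodes cyclin D1, and E2f2. The Polycomb and DNA methylation list had 1 of 53 (1.89%), near Dnmt1, the maintenance methyltransferase, with a -log10 p of 71.9 at P14, 59.5 in the fetus, 88.7 at P21, 93.5 in adults and 87.0 in the second P7 list. Homing and adhesion had 0 of 50. Among markers of other cell types, hepatocyte and endothelial genes had 0 of 17 and 0 of 39, stromal genes 1 of 32 (Runx2) and neuronal genes 1 of 56 (Rbfox3). The blood lists thus ranged from 0 to 8.57%, and the lists of other tissues from 0 to 3.13%. The lists of other tissues were fewer and all counts were small, so no difference between these groups is read from the ranges.

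**Figure D5:**
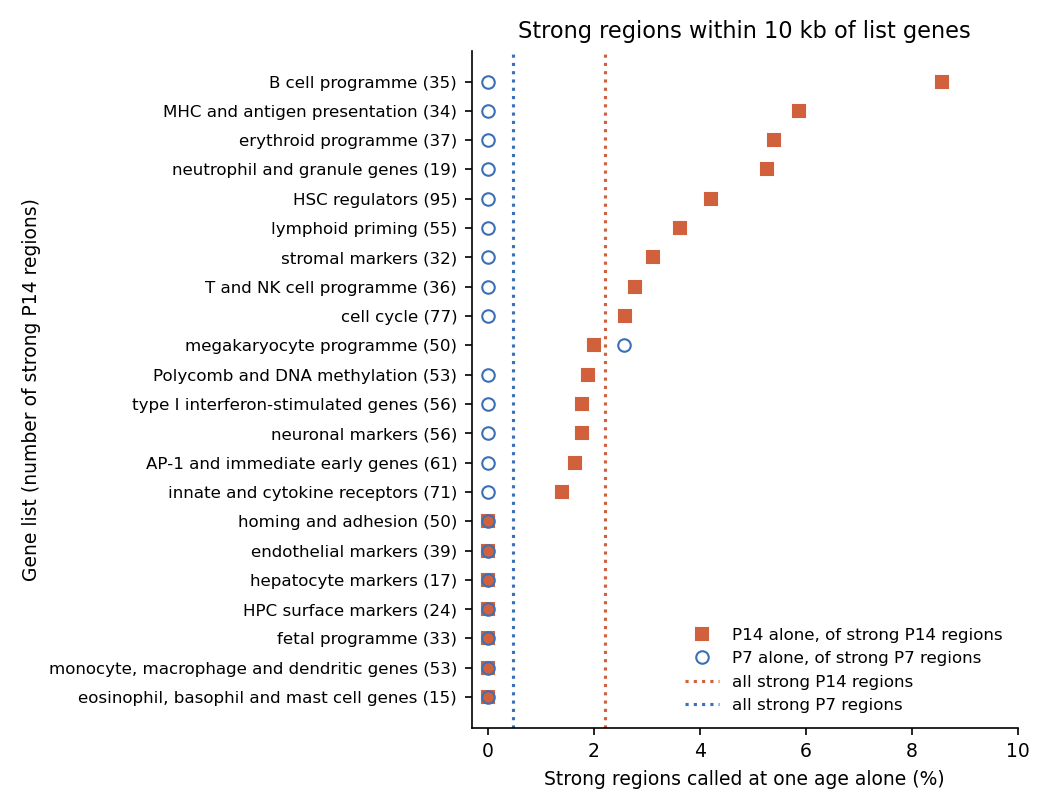
Percent of the strong regions within 10 kb of the genes of each list that were called at P14 alone (squares) or at P7 alone (circles); dotted lines mark all strong regions, at 2.21% and 0.471%. The B cell list is highest at 8.57% from 3 of 35 regions, and the only P7 circle above 0 is the megakaryocyte list, from 1 region.

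Several marker genes differed in weak regions only. Kit encodes the receptor for stem cell factor, and P7 had 2 regions within 10 kb of it and P14 had 8, 6 of which were P14-only. Those 6 had a -log10 p of 13.01 to 49.2 at P14, none was strong and none was called in the second P7 list. With the P14 list at equal length 6 regions were left. At Irf8, a factor of monocyte and dendritic cells, P7 had 4 regions and P14 had 6, with 1 and 3 called at 1 age alone. At Irf7, an inducer of interferon genes, P7 had 4 and P14 had 6, and the 2 P14-only ones (32.6 and 21.6) were both called in adult HPCs and in no set 2 list. Ciita, the activator of MHC class II genes, had 8 and 10, with 1 and 3 alone, and Hlf, an HSC factor, had 9 and 13, with 2 and 6 alone.

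Other marker genes had nearly the same regions at both ages. Cd48 had 6 and 6 and Il7r, the interleukin 7 receptor gene, 2 and 2, with no region at 1 age alone, and Isg15 had 3 and 3. Flt3, a receptor of early lymphoid and myeloid progenitors, had 9 and 10, with 1 and 2 alone. Ly6a, which encodes Sca-1, had 2 and 2, with 1 alone at each age. Its P7-only region had a -log10 p of 9.59 and lay beside a region shared with P14 (79.3 at P7 and 254 at P14). In the second P7 list and in adult HPCs, 1 wider region covered both places, with its summit outside the P7-only one. Gata1 had 0 regions at P7 and 1 at P14, at 9.15, and the fetal list had 2.

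Of the 14 matched genes of the fetal programme, 12 had a region at P7 and 11 at P14. Near these genes 25 of 79 P14 regions (31.6%) were P14-only, against 24.5% of all P14 regions. Of their P7 regions 10 of 66 (15.2%) were P7-only, against 11.8% of all P7 regions. More regions were P14-only than P7-only for 8 of the genes and fewer for 3. The 3 were Igf2 (2 P7-only and 0 P14-only), Igf2bp1 (1 and 0) and Sox17 (1 and 0), and they were named after their values were seen. Lin28b, an RNA-binding protein of the fetal state, had 6 regions at P7, 8 at P14, 11 in the fetus and 4 in adults, with 0 and 3 called at P7 or P14 alone. Hmga2 had 13 and 17, with 2 and 6 alone, against 13 in the fetus and 10 in adults. Igf2bp3 had 6 and 7, with 1 and 2 alone. Among regulators of other lists, Ebf1, a B cell factor, had 21 and 27, with 4 and 10 alone, Cdk6 14 and 17, with 0 and 3 alone, and Mecom 32 and 34, with 8 and 11 alone.

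Over all protein-coding genes, 42 had 2 strong P14-only regions within 10 kb and none had 3. Because of these ties the rule of 8 genes took them in alphabetical order, beginning with Acad12, Ak8 and Alk. C1ql1 was among them. At P7, 3 genes had 2 strong P7-only regions, namely Mctp1, Sdccag8 and Sgcz, and all others had at most 1. Mctp1 had 30 regions at P7 and 23 at P14, and Sgcz, a sarcoglycan gene of 1144 kb, had 12 and 10.

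Gene starts were examined through the 21045 RefSeq promoter windows of 300 bases, 250 before and 50 after the start, which cover 17274 of 21631 protein-coding genes. Of these windows 12182 overlapped a region at both ages, 907 at P14 alone, 135 at P7 alone and 7821 at neither. Strong P14-only regions overlapped 82 windows of 77 genes, and 63 of the 82 (76.8%) were called in the second P7 list. A few of these genes are named here, picked without a rule after the values were seen. They are Icam1, an adhesion molecule of leukocytes, Il4, the type 2 cytokine, and Traf1, an adaptor of tumour necrosis factor receptors. Rpl10a and Psmb5, a ribosomal and a proteasome subunit, were also among them. The second P7 list called the regions at all of these named genes but Traf1. Strong P7-only regions overlapped 1 window, that of Nmur2, whose bases are printed above. The Nmur2 region had a -log10 p of 35.2 at P7 and 23.2 in fetal HPCs, and no P21, adult or set 2 HPC list called it. All 5 HSC lists called it, at 24.9 to 92.3, with the highest value in the fetus.

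Promoter windows differed in base composition and in motif content. The median share of guanine and cytosine was 62% in windows open at both ages, 59.7% at P14 alone, 53.7% at P7 alone and 47.3% at neither. An ETS motif (CCGGAAGT), bound by a family that includes PU.1 and Gabpa, was in 8.20% of windows open at both ages, 2.54% of those open at P14 alone, and 0 of 135 at P7 alone, which allows up to 2.22%. It was in 5.198% of all windows. The GATA motif (AGATAA) was in 5.48%, 7.83% and 11.1% of those classes and in 9.68% of all windows, and the AP-1 motif in 4.19%, 8.05% and 8.89%, with 7.04% of all. The RUNX motif (TGTGGTT) was in 3.51%, 3.53% and 2.22%, and in 4.74% of all. The CEBP motif (TTGCNNAA) was in 7.72%, 9.04% and 14.8%, and in 10.3% of all, and the PU.1 motif in 3.18%, 2.76% and 0.741%, and in 3.15% of all. EBF, ISRE and CTCF motifs were in 0.993%, 2.88% and 2.42% of the windows open at both ages and in 1.43%, 4.19% and 1.65% of those open at P14 alone. At P7 alone they were in 0 of 135, 6.67% and 4.44%. Windows open at neither age held GATA in 16.4% and AP-1 in 11.3%, so windows called at 1 age alone lay between those open at both ages and at neither for GATA and AP-1. At P7 alone this was not so for any other motif. Windows open at neither age held ISRE in 4.002%, CEBP in 14.3%, RUNX in 6.84% and PU.1 in 3.20%. They held ETS in 0.921%, EBF in 0.882% and CTCF in 0.371%.

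Among regions called at both ages, gene ends ranked higher at P14. This measure was added after the data were seen. Regions of each list at equal length were given a percentile by -log10 p, and 65263 shared places were compared. The median change from P7 to P14 was -0.18 percentile points, with an interquartile range of -7.50 to 6.55. The percentile was higher at P14 by more than 10 points for 17.6% of places and lower by more than 10 points for 19.9%. At gene ends (14499 places) the median was 2.13, and away from them (50764) it was -1.51. With the second P7 list in place of the first the medians were 1.22 and -2.39, so both directions were the same with either list. Among promoter windows the median change rose with the share of guanine and cytosine, from -0.631 at up to 45% to 4.87 above 75%. With the second P7 list it was 2.41 and 6.40 in those classes, and lowest, at 0.0924, between 55% and 60%. Whether base composition set the change at gene ends was not tested.

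For the gene lists this measure depended on which P7 list was used. AP-1 and immediate early genes had a median of 7.27 points with the set 1 list, with 28 of 70 places (40%) higher by more than 10, and -4.13 with the set 2 list. The sign of the median was the same with both lists in 6 of 22 lists. The B cell list was one of them, at -2.16 and -9.27, and the hepatocyte list another, at -3.97 and -2.04. No direction is therefore given for the other 16 lists.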

How the data were processed

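Per the submitters' processing notes, the authors used Bowtie2 and MACS2 on mm10 (GRCm38). Neither a version nor a setting is given in the sources used here. The deposited lists give per peak a score (413 to 1000), the fold (ratio) over background, and -log10 values of p and of q, all by the authors. Ranks and strength classes were formed within a list. Lists were assigned to groups by the name they carry, and the libraries of a group were pooled in 1 list. Regions were merged and intersected with Python 3.11.15, pandas 2.3.3 and SciPy 1.17.1. The code was tested on altered copies of the P14 HPC list, a small made-up peak table and random sequences. Gene ends come from a RefSeq table of GRCm38.p6 with 21631 protein-coding genes. Ends replaced the planned starts, since starts were at hand for 17274 genes only.

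The members, gene lists and rules were chosen with earlier results of these data known. Named are the 12 strongest regions at each age alone, the 10 strongest kept gains and losses, 8 genes by number of strong regions in each direction, up to 3 members per list with a difference of 2 or more, and a fixed set of marker genes. Each region is named by the nearest gene end within 50 kb, without predicted genes. Besides the motifs spelled out with the results, PU.1 (GAGGAAGT), CEBP, EBF, ISRE and CTCF were searched on both strands. The PU.1 and ETS motifs share their last 6 letters, and overlaps were not separated.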

Additional observations from a re-analysis of the deposited data

How the results depend on the processing

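Each count of regions called at 1 age alone was recomputed under the alternatives, and P14-only regions outnumbered P7-only ones in each. Over all regions at equal length the 2 counts were bound to be close, so their order there is no result. At equal length the P14-only counts were 13070 in place of 22310 and, for strong regions, 466 in place of 1008. Strong P7-only and P14-only counts, 187 and 1008 in the lists as deposited, were 1439 and 2633 for summits within 100 bp, 396 and 4325 with the set 2 list for P7, 0 and 20 in the upper 25%, and 370 and 1950 when strength was read from the fold. Limits on -log10 q of 2 and 5, an overlap of 50% and a slack of 500 bp left every one of these counts within 1.5 times. Kept gains numbered 759 with the 5 HPC lists at equal length, in place of 1274. With the set 1 P7 list alone there were 2364 kept gains and 1466 kept losses, in place of 185. Lists with more strong P14-only than P7-only regions were 14, and 4 within 1 kb of gene ends, 22 over all regions, 8 at equal length and 18 with windows of 50 kb.

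The median change in percentile turned its sign with the set 2 P7 list in 16 gene lists, and the cause was not tested. It then was -0.17 for lymphoid priming, -7.77 for T and NK cells, -9.20 for neutrophils, -7.03 for monocytes and dendritic cells, -0.32 for megakaryocytes, -1.72 for HSC regulators, -5.59 for HPC surface markers, -3.50 for the fetal programme, -6.21 for MHC, -8.61 for innate receptors, -4.13 for AP-1, -1.41 for the cell cycle, -7.08 for homing, -7.72 for Polycomb, -9.77 for stroma and 15.19 for neurons. No paired analysis was possible because each group has 1 pooled list, and for the same reason no library could be left out. Read depth is unknown, so a region missing from the shorter and weaker P7 list may lie below what its depth can show.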

Other observations

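A few regions had very different ranks at P7 and P14, and they were picked out after their values were seen. A region at chr1:24613000-24613884, 25078 bp from an end of Col19a1, had a -log10 p of 10.1 in P7 HPCs of set 1 and 2648 in P14 HPCs, the highest value of that list, at percentiles 11.8 and 99.999 of lists of equal length. It had 2818 in wild-type P7 HPCs and 2492 in wild-type P7 HSCs of set 2, 3906 in fetal HPCs, 4196 in adult HPCs and 4803 in adult HSCs. All of these but that of adult HSCs were the highest value of their list. The region was not called in fetal HSCs, P14 HSCs, P21 HPCs or either knockout list. Calls thus followed neither age nor cell type, and no difference between P7 and P14 is read from this region. Why the lists differed there was not tested.

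At Sat1, which encodes an enzyme that acetylates polyamines, the order was the other way round. The region at chrX:155215517-155216886 had 299 in P7 HPCs and 38.0 in P14 HPCs, at percentiles 98.4 and 25.2 of lists of equal length. It had 386 in the second P7 HPC list, 611 in P21 HPCs, 721 in fetal HPCs and 1080 in adult HPCs. A region inside Clint1 (chr11:45889745-45890558) had 9.56 at P7 and 274 at P14 (percentiles 10.4 and 85.9), with 194 in the fetus, 140 at P21 and 594 in adults, and the second P7 HPC list did not call it.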
